A study of Mus musculus with 22 samples.

Results

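The interleukin-1 (IL-1) family genes Il1a, Il1b, Il1rn, Il1r1, Il1r2, Il1rap, Il18, Il18bp, Il33 and Il1rl1 were followed in the mouse hypothalamus, whose neurons regulate body temperature and feeding. The 10 genes were taken by symbol from the platform annotation, and 8 of them had 1 probe set each with a single gene symbol, among 19935 genes tested in all. Il1r1, the signalling receptor for IL-1, and Il1rl1, the receptor for IL-33, matched no such probe set and are not analysed here. Male C57bl6 mice of 9 to 12 weeks, deficient in interleukin-6 (labelled IL-6 KO) or wild-type (WT) littermates from the same parents, were injected intraperitoneally with lipopolysaccharide (LPS) of Escherichia coli at a dose of 120 µg/kg or with saline. LPS is an outer membrane component of Gram-negative bacteria that elicits fever. The tissue was taken after 3 h. The arrays comprised 7 from KO mice after LPS, 4 from KO mice after saline, 7 from WT mice after LPS and 4 from WT mice after saline. All animals, controls included, were housed singly and perfused with saline before dissection. The design text sets the LPS response of the KO hypothalamus against that of the WT hypothalamus because mice lacking IL-6 mount no fever.

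IL-1α and IL-1β bind one receptor, which recruits the accessory chain IL-1RAP and signals through MyD88 and the IRAK kinases to NF-kB. The receptor antagonist and the decoy receptor IL-1R2 oppose them. IL-18 is held in check by its soluble binding protein, and IL-33, a nuclear alarmin, signals through its own receptor with the same accessory chain. In the brain, IL-1β is a classical fever-inducing cytokine that acts on endothelial cells, where it induces the cyclooxygenase that makes prostaglandin E2.

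The deposited values are log2 differences of an array from each probe set's median over the 22 arrays, so 0 is the median array. They give no absolute expression, so neither the order of genes by abundance nor their distance from background can be read from them. For the same reason the presence of hypothalamic marker transcripts could not be judged. Il6 itself ranged from -0.0059 to 0.61 (median 0.18) in KO arrays after LPS and from -0.099 to 0.28 (median 0.074) in WT arrays after LPS. It ranged from -0.16 to -0.077 in KO arrays after saline and from -0.17 to -0.11 in WT arrays after saline. The Il6 value therefore did not separate the labelled genotypes (KO minus WT after LPS 0.17, SE 0.070, adjusted p = 0.397, limma). Where in Il6 the mutation lies is not given in the sources used here, so this probe set does not check the labels. In 4 arrays, WT saline replicate 1, WT LPS replicate 5, KO saline replicate 2 and KO LPS replicate 3, choroid plexus or pituitary markers stood high in earlier results of these data. The mean of 10 choroid plexus markers was 0.83 in the first of these arrays, and the mean of 8 pituitary markers was 1.04 and 0.95 in the last 2. In KO LPS replicate 5 the pituitary mean was 0.53, above the choroid plexus mean of 0.33 that placed WT LPS replicate 5 among the 4. The fits were therefore repeated without the 4 arrays and, as an alternative added after seeing the data, without all 5, and calls that were lost are given below. In bulk tissue, fewer cells of a type and less RNA per cell cannot be told apart.

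Of the 8 measured genes, 1 was called in WT after LPS (Il1a), 0 in KO, and 1 (Il1b) when the LPS effects of KO and WT were averaged, each at an adjusted p under 0.05. Over all genes tested, 1.8% were called in WT, 1.34% in KO and 2.76% in the averaged effect. At an unadjusted p under 0.05, limma picked 4 of the 8 in WT (Il1a, Il1b, Il1rn and Il18bp, against 6.42% of all genes), 1 in KO (Il1b, against 5.84%), and those 4 in the averaged effect (against 9.13%). Exact permutation of the treatment labels, gene by gene and unadjusted, picked 5 in WT (Il1r2 besides those 4, against 6.7% of all genes), 0 in KO (5.46%) and 4 in the averaged effect (9.31%). The median log2 difference of the 8 genes was 0.14 in WT, 0.060 in KO and 0.11 in the averaged effect. The corresponding medians over all genes were -0.011, -0.0089 and -0.010. The largest LPS effect among the 8 genes was 1.31-fold.

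**Figure D1:**
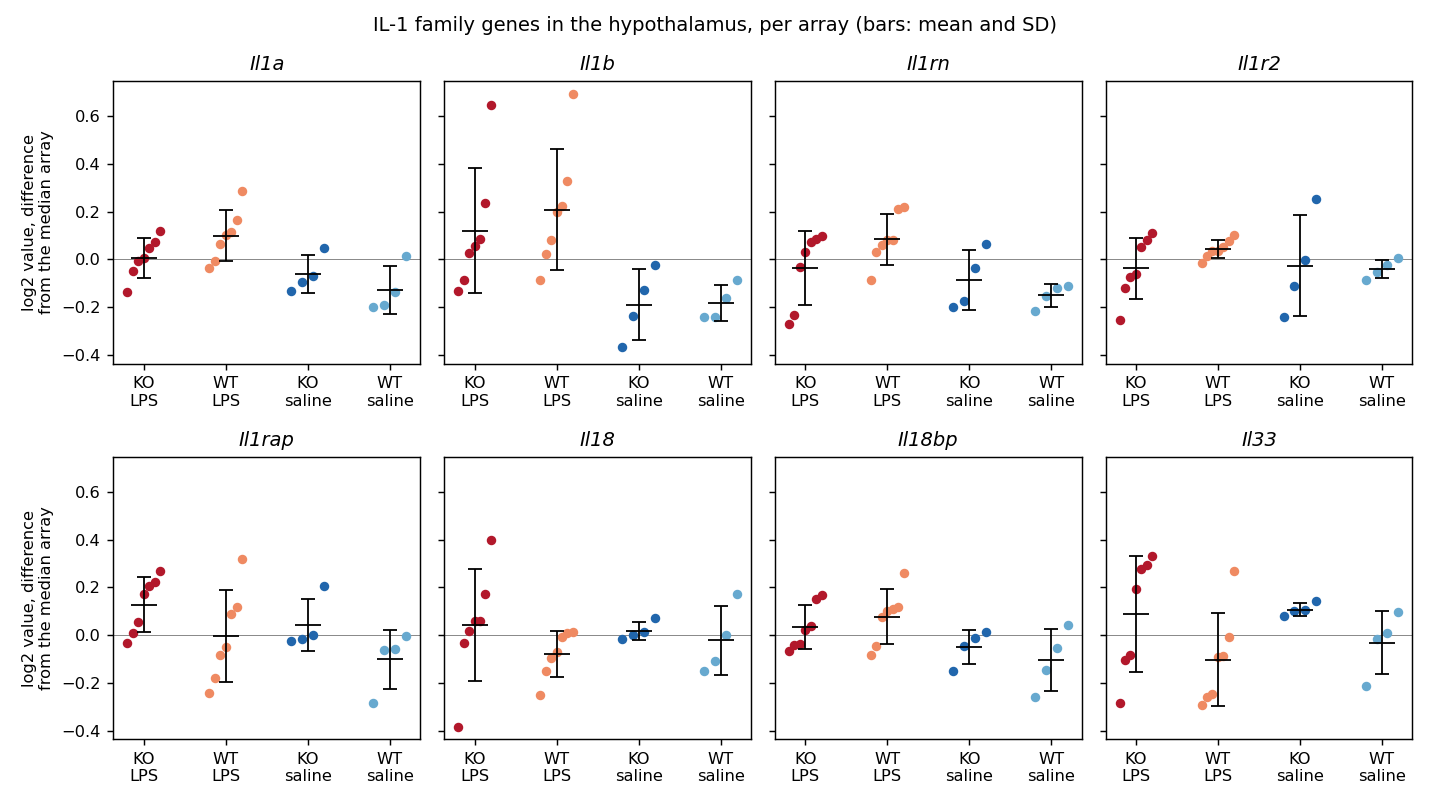
Log2 value of each array (points), as a difference from the median array, for the 8 measured IL-1 family genes in KO LPS, WT LPS, KO saline and WT saline arrays, with the group mean and SD as bars. Il1b runs from -0.13 to 0.65 in KO and from -0.086 to 0.69 in WT after LPS, and Il1rn is the only one of the 8 genes whose WT LPS arrays all lie above its WT saline arrays.

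Il1b, the secreted fever-inducing cytokine, showed the largest LPS effect of the 8 genes, and its SD over the 22 arrays was at the 98.4th percentile of all genes. In KO arrays it ranged from -0.13 to 0.65 (median 0.056) after LPS, against -0.37, -0.24, -0.13 and -0.022 after saline. In WT arrays it ranged from -0.086 to 0.69 (median 0.20) after LPS, against -0.24, -0.24, -0.16 and -0.085 after saline. The groups overlapped in both genotypes, although 5 of 7 KO arrays and 6 of 7 WT arrays after LPS exceeded the highest saline array of their genotype, and 1 array in each genotype (KO LPS replicate 7 and WT LPS replicate 4) stood at 0.65 and 0.69. Averaged over the genotypes, Il1b rose 1.27-fold with LPS (log2 0.35, SE 0.089, adjusted p = 0.0256, limma; exact permutation p = 0.00126, two-sided, 108900 regroupings). Within a genotype it did not pass the test: the difference was 0.31 in KO (95% confidence interval 0.050 to 0.57, adjusted p = 0.600) and 0.39 in WT (0.13 to 0.65, adjusted p = 0.189). The averaged call was lost without WT saline replicate 1, WT saline replicate 2, KO saline replicate 1 or KO saline replicate 2 (adjusted p = 0.0644, 0.0615, 0.0787 and 0.0587), and without the 4 or the 5 arrays named above (0.34 and 0.35, adjusted p = 0.172 and 0.181).

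Il1a encodes the cell-associated alarmin IL-1α, whose precursor is active without cleavage. In KO arrays it ranged from -0.14 to 0.12 (median 0.0057) after LPS, against -0.13, -0.093, -0.068 and 0.049 after saline. In WT arrays it ranged from -0.034 to 0.28 (median 0.10) after LPS, against -0.20, -0.19, -0.13 and 0.014 after saline. The groups overlapped in both genotypes, and 5 of 7 WT LPS arrays exceeded every WT saline array, whereas 2 of 7 KO LPS arrays exceeded every KO saline array. In WT arrays Il1a rose by 0.23 on the log2 scale, or 1.17-fold (SE 0.059, adjusted p = 0.0446, limma; exact permutation p = 0.0121, two-sided, 330 regroupings). In KO the difference was 0.069 (95% confidence interval -0.052 to 0.19, adjusted p = 0.9998), and averaged over the genotypes it was 0.15 (SE 0.042, adjusted p = 0.0570). The WT call lies at the edge of the threshold: it held in 6 of 22 fits that left out 1 array (adjusted p between 0.0159 and 0.221) and was lost without the 4 or the 5 arrays named above (0.21 in both, adjusted p = 0.308 and 0.249). The difference between the LPS effects was -0.16 (95% confidence interval -0.33 to 0.014, adjusted p = 0.999994), so the genotypes were not shown to differ.

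Il1a and Il1b lie side by side on chromosome 2, and their promoter windows are shown because they are the 2 members that passed a test. The windows come from RefSeq (GRCm38.p6), run 5′ to 3′ on the minus strand from 250 bases before to 50 bases after the transcription start, and carry TATAAA (searched on the gene strand) in capitals.
Il1a, chr2:129309923-129310222: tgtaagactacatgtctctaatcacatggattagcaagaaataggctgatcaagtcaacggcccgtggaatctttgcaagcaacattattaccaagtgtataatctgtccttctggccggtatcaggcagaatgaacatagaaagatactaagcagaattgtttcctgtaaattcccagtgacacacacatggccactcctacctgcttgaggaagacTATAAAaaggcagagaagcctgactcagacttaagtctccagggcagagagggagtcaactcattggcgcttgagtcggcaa
Il1b, chr2:129371090-129371389: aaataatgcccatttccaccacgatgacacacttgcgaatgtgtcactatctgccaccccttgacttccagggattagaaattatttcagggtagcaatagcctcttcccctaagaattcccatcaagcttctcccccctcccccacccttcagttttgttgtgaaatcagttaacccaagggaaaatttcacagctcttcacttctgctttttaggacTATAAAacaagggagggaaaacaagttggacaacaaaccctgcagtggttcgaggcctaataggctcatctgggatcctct
The match lies at positions -32 to -27 from the start base in Il1a and at -31 to -26 in Il1b, and 8.32% of 32851 RefSeq promoter windows hold TATAAA somewhere. On either strand, neither window holds the NF-kB consensus (in 8.46% of windows), the interferon-stimulated response element (ISRE) pattern (3.44%), TTCNNNGAA (8.3%, the STAT-type GAS pattern) or TTGCNNAA (10.8%, the C/EBP type), which says only that these letters are not in these 300 bases.

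The inhibitors of IL-1 and IL-18 were higher after LPS in WT arrays by differences that did not pass the test over all genes. Il1rn, the IL-1 receptor antagonist, ranged from -0.088 to 0.22 (median 0.080) in WT arrays after LPS, against -0.22, -0.15, -0.12 and -0.11 after saline, and so did not overlap. It was the only one of the 8 in WT, and 0 of the 8 were so in KO. Over all genes, 1.63% had every WT LPS array above every WT saline array, and 1.21% in KO. The Il1rn difference in WT was 0.23 (SE 0.072, adjusted p = 0.149, limma; exact permutation p = 0.00303, the smallest that 330 regroupings allow). In KO arrays Il1rn ranged from -0.27 to 0.097 (median 0.031) after LPS, against -0.20, -0.17, -0.036 and 0.066 after saline, with a difference of 0.050 (SE 0.072, adjusted p = 0.9998). The KO LPS arrays therefore lay on both sides of the saline arrays, with 3 above and 2 below all of them. Il18bp, the soluble IL-18 binding protein, ranged from -0.065 to 0.17 (median 0.023) in KO arrays after LPS, against -0.15, -0.045, -0.013 and 0.013 after saline. In WT arrays it ranged from -0.085 to 0.26 (median 0.10) after LPS, against -0.26, -0.14, -0.054 and 0.044 after saline. Its groups overlapped, with differences of 0.083 (SE 0.064) in KO and 0.18 (SE 0.064, adjusted p = 0.314) in WT and an averaged effect of 0.13 (SE 0.045, adjusted p = 0.188).

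For the remaining receptors and ligands, no LPS effect passed the test over all genes. Il1r2, the decoy receptor, ranged from -0.25 to 0.11 (median -0.062) in KO arrays after LPS, against -0.24 to 0.25 after saline, and from -0.014 to 0.10 (median 0.036) in WT arrays after LPS, against -0.086 to 0.0042 after saline. In WT, 6 of 7 LPS arrays lay above the highest saline array (difference 0.083, SE 0.070, adjusted p = 0.9997; exact permutation p = 0.0121). The spread of Il1r2 differed between the genotypes, with SDs of 0.13 and 0.21 in KO arrays after LPS and saline against 0.039 and 0.039 in the WT arrays, while the fit gives all 4 groups 1 pooled error. Il1rap, the accessory chain, differed by 0.087 in KO and 0.098 in WT (SE 0.085 each). Il18, an interferon-γ-inducing cytokine released after caspase-1 cleavage, differed by 0.024 in KO and -0.058 in WT (SE 0.092 each). Il33 differed by -0.017 in KO and -0.071 in WT (SE 0.11 each). The 95% confidence interval of the averaged effect ran from -0.033 to 0.22 for Il1rap, from -0.15 to 0.12 for Il18 and from -0.20 to 0.11 for Il33. Changes beyond those bounds lie outside the intervals, while smaller ones could not be resolved with these arrays.

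**Figure D2:**
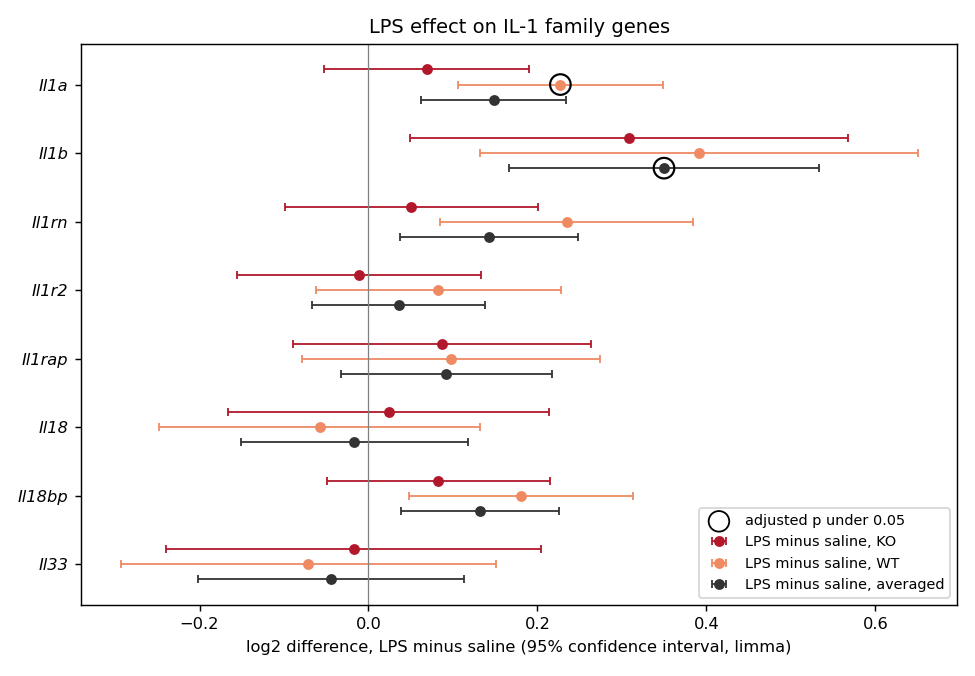
Log2 difference between LPS and saline arrays (x axis) for each of the 8 genes, in KO, in WT and averaged over the genotypes, with 95% confidence intervals from limma and a ring around differences with an adjusted p under 0.05. Il1a in WT (0.23) and Il1b in the averaged effect (0.35) carry a ring, and the intervals of Il1r2, Il1rap, Il18 and Il33 span 0 in all 3 comparisons.

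Genes around the family were read from 4 lists. Of 7 other measured IL-1 family ligands and receptors (Il1f10, Il18r1, Il18rap, Il1rl2, Il1rapl1, Il1rapl2 and Sigirr), 0 were called in the averaged LPS effect by limma, and 1, Il18r1, the IL-18 receptor chain, had an unadjusted p under 0.05 (-0.069, SE 0.031, adjusted p = 0.478). Over all genes, 2.76% were called in that effect and 9.13% had an unadjusted p under 0.05. Of 11 inflammasome and processing genes, Casp4, the caspase that senses intracellular LPS (known as caspase-11 in mice), rose by 0.77 (SE 0.12, adjusted p = 0.000403) in KO and by 1.11 (SE 0.12, adjusted p = 1.59e-06) in WT. Over all genes, 1.08% rose in KO and 1.42% in WT. The other 10 genes of this list did not pass, among them Casp1, which cleaves pro-IL-1β and pro-IL-18 (averaged effect 0.025, SE 0.028, adjusted p = 0.924), and the sensor gene Nlrp3 (0.037, SE 0.038, adjusted p = 0.913). Of 16 IL-1 receptor signalling genes, 3 rose and 1 fell in the averaged effect, where 1.99% of all genes rose and 0.773% fell. The adaptor gene Myd88 rose by 0.49 (SE 0.068, adjusted p = 2.80e-05), the kinase gene Irak2 by 0.31 (SE 0.029, adjusted p = 7.19e-08) and Irak3, which encodes an inhibitory IRAK, by 0.19 (SE 0.047, adjusted p = 0.0244). Tab2, an adaptor of the TAK1 kinase, fell by 0.16 (SE 0.040, adjusted p = 0.0251). Without the 4 arrays the Irak3 call was lost (0.19, adjusted p = 0.0950), and without all 5 it was kept (0.20, adjusted p = 0.0480).

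Genes that IL-1 is known to induce form the last of the 4 lists, which was chosen with results of these data known. Of 19 measured, 16 rose and 0 fell in the averaged effect, where 1.99% of all genes rose and 0.773% fell. The median was 0.32, against 0.11 for the 8 family genes and -0.010 for all genes. In KO 8 rose, where 1.08% of all genes rose, and in WT 11, where 1.42% did. Without the 4 arrays 13 rose in the averaged effect, 5 in KO and 9 in WT, and without all 5 arrays 15, 5 and 9. Il6 is on this list and is one of the 8 called in KO, the genotype labelled as lacking it (0.36, SE 0.082, adjusted p = 0.0193), while in WT it differed by 0.21 (SE 0.082, adjusted p = 0.457). The Il6 call in KO was lost without the 4 or the 5 arrays (adjusted p = 0.145 and 0.172), and the test of whether its LPS effects differ gave 0.15 (SE 0.12, adjusted p = 0.999994). The largest averaged effects were in Lcn2, an iron-scavenging acute-phase protein (2.85, SE 0.14), Ptgs2, the inducible cyclooxygenase (1.45, SE 0.16), Nfkbia, the NF-kB inhibitor (1.36, SE 0.088), the chemokine gene Ccl2 (1.25, SE 0.24), and the adhesion molecule genes Icam1 (1.22, SE 0.091) and Vcam1 (1.21, SE 0.083). These genes also respond to LPS itself, TNF and other cytokines. Because of how the list was chosen, its counts, effect sizes and direction are not independent evidence, nor is its median set against the family genes. Tnf (0.061, SE 0.038), Zc3h12a (0.048, SE 0.058) and Mmp3 (-0.084, SE 0.054) did not pass.

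**Figure D3:**
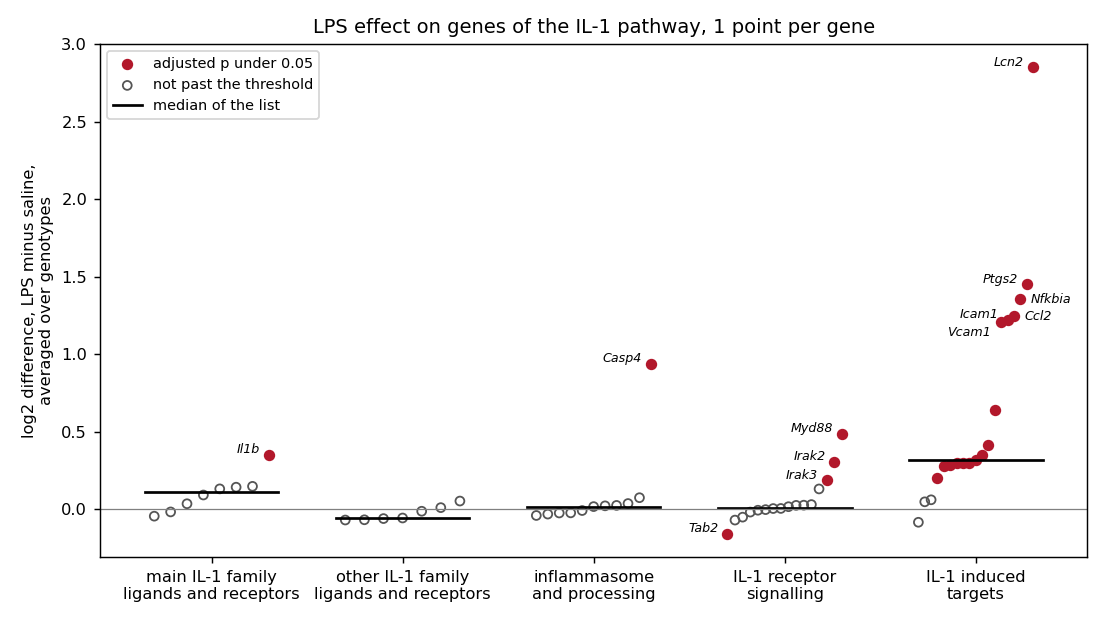
Log2 difference between LPS and saline arrays, averaged over the genotypes, for each gene (points) of the 8 family genes and 4 further lists, with filled points for an adjusted p under 0.05 and a bar at the list median. The medians of the first 4 lists lie between -0.056 and 0.11, while 16 of 19 IL-1 induced targets are filled and all 16 lie above 0. The target list was chosen with results of these data known.

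Within the 14 LPS arrays, the mean of the 19 target genes varied with Il1b. Pearson's r was 0.698 (permutation p = 0.00591, adjusted p = 0.0118 over 2 relations) and Spearman's rho was 0.666 (permutation p = 0.0109, adjusted p = 0.0218). The r was 0.645 over the 7 KO arrays and 0.749 over the 7 WT arrays. It was 0.606 over the 7 LPS arrays numbered 1 to 11 and 0.706 over the 7 numbered 12 to 22. Without the 2 arrays farthest from the Il1b median, KO LPS replicate 7 and WT LPS replicate 4, the r was 0.535 over 12 arrays. For Il1a the r was 0.601 (permutation p = 0.0226, adjusted p = 0.0226) and rho was 0.569 (permutation p = 0.0361, adjusted p = 0.0361), and without the 2 arrays farthest from its median the r was 0.556. The Il1a r differed between the sets of array numbers, with 0.013 in arrays 1 to 11 and 0.858 in arrays 12 to 22. It was 0.246 within WT, against 0.841 in KO. For neither gene was a p computed within a genotype, within a set of array numbers or without the 2 arrays. Whether either relation holds in those smaller sets was therefore not tested. The permutations shuffled all 14 LPS arrays together, across the genotypes. The target list was chosen with results of these data known, and it holds Tnfaip3, which had the highest r with Il1b over the 22 arrays (0.851). Whether other genes follow the target mean as closely was not tested, nor was a link from IL-1 to these targets.

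**Figure D4:**
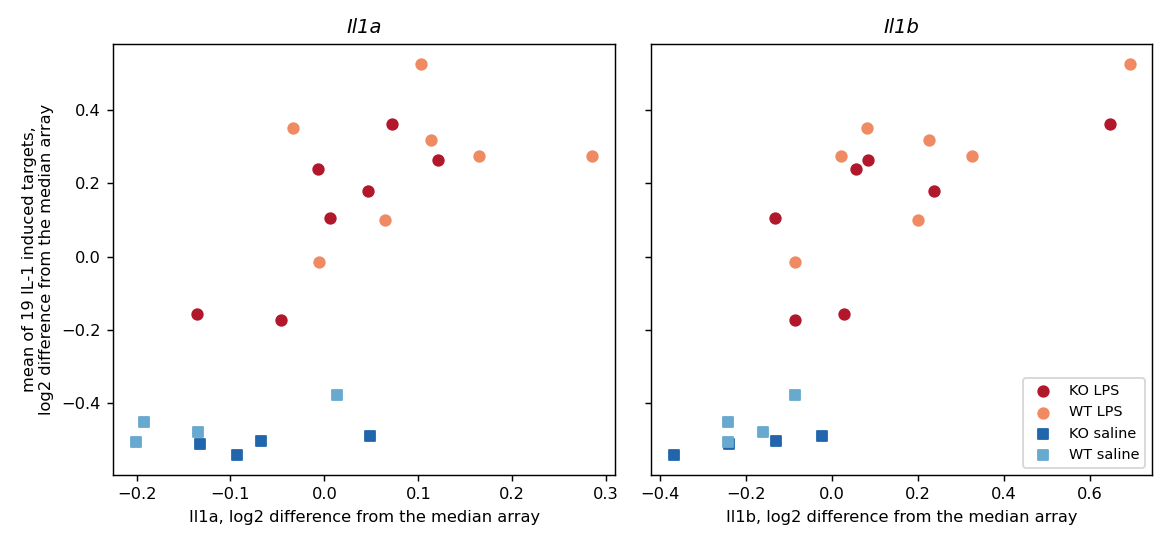
Mean log2 value of 19 IL-1 induced target genes per array (y axis) against Il1a (left) and Il1b (right), both as differences from the median array, with circles for LPS and squares for saline arrays of KO and WT mice. The 2 arrays with Il1b at 0.65 and 0.69 have the highest target mean of their genotype, and the saline arrays all lie below the LPS arrays in target mean.

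Over all 22 arrays, the 5 genes whose pattern was most like that of Il1b by Pearson's r were Tnfaip3 (0.851), which encodes an NF-kB feedback inhibitor, Tnfrsf1b (0.846), a TNF receptor gene, Gem (0.839), Ch25h (0.829), a cholesterol hydroxylase gene, and the chemokine gene Ccl5 (0.823). For Il1a they were Ncf1 (0.832), a subunit of the phagocyte NADPH oxidase, Il17ra (0.824), Sh2b2 (0.822), Bcl3 (0.819), an atypical IkB protein, and Zbp1 (0.808), a nucleic acid sensor. All 22 arrays share the LPS and saline contrast, which adds to each r. As deviations from the group means the r lay between 0.665 and 0.770 for the genes listed with Il1b and between 0.669 and 0.777 for those listed with Il1a. Among the 8 family genes themselves, Il1a and Il1rn had the highest r (0.793, and 0.650 as deviations from group means), followed by Il1rap and Il33 (0.764, and 0.797 as deviations). Il1a and Il1b had 0.669, and Il18 lay opposite to Il18bp (-0.470).

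Markers of cells that make or could carry IL-1 transcripts were read beside these results. Of 11 microglia markers, 2 fell in the averaged effect, Cx3cr1 (-0.35, SE 0.058, adjusted p = 0.000265) and Sall1 (-0.24, SE 0.041, adjusted p = 0.000492), and 0 rose. Over all genes, 0.773% fell and 1.99% rose in that effect. The mean of the microglia markers per array ranged from -0.026 to 0.049 in KO LPS arrays against 0.035 to 0.076 in KO saline arrays, and from -0.10 to -0.021 in WT LPS arrays against 0.0045 to 0.12 in WT saline arrays. Of 11 neutrophil markers and 9 markers of monocytes and border macrophages, 0 were called in that effect by limma, and 2 and 0 had an unadjusted p under 0.05 (against 9.13% of all genes). Across the 22 arrays, the mean of the neutrophil markers nevertheless varied with several family genes, with an r of 0.598 for Il1rn, 0.571 for Il1r2, 0.503 for Il18bp and 0.441 for Il1a (0.591, 0.515, 0.551 and 0.421 as deviations from group means). Its r was 0.261 for Il1b, -0.563 for Il18 and -0.535 for Il33. The 1 measured blood marker, Alas2, had an r of 0.434 for Il1rn, 0.356 for Il1r2, 0.399 for Il18bp and 0.320 for Il1a. As deviations from group means these were 0.587, 0.369, 0.557 and 0.505. The pattern was thus not particular to the neutrophil markers, and the share of all genes with an r this high was not computed. The mean of the monocyte and border macrophage markers had an r of 0.442 with Il1a and of 0.366 with Il1b (0.519 and 0.309 as deviations). For the mean of the microglia markers the r was -0.566 and -0.431. As deviations from group means it was 0.072 and 0.277, so the negative r did not hold within groups. Of 11 brain endothelial markers, 9 fell, and the list mean ranged from -0.094 to 0.10 in KO LPS arrays against 0.30 to 0.44 in KO saline arrays, and from -0.20 to -0.12 in WT LPS arrays against 0.23 to 0.37 in WT saline arrays. The part of cell composition in the results on Il1a, Il1b, Il1rn and Il18bp was not tested.

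Between the genotypes, 0 of the 8 family genes were called by limma after LPS, where 0.0401% of all genes were called, 0 after saline, where 0.00502% were, and 0 in the test of whether the LPS effects differ, where 0 of 19935 genes were. At an unadjusted p under 0.05, 1 of the 8 (Il33) was picked after LPS (against 11.4% of all genes), 0 after saline (5.17%) and 0 in the last test (1.64%). Exact permutation picked 0 in each, against 8.8%, 2.97% and 1.69% of all genes. Il1b differed between KO and WT after LPS by -0.089 (95% confidence interval -0.31 to 0.13), and Il1a by -0.091 (-0.19 to 0.013). Il1rn differed by -0.12 (-0.25 to 0.0072) and Il18bp by -0.043 (-0.16 to 0.069). The intervals of these 4 genes include 0 and reach below it. The difference between the LPS effects was -0.082 (95% confidence interval -0.45 to 0.28) for Il1b and -0.18 (-0.40 to 0.027) for Il1rn. Of the 19 IL-1 induced targets, Lcn2 alone was called between the genotypes after LPS (-1.04, SE 0.17, adjusted p = 0.0164), where 0.0201% of all genes were lower in KO. That call was lost without the 4 or the 5 arrays (adjusted p = 0.102 and 0.324).

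Il33, which oligodendrocytes and astrocytes express in the brain, had the smallest unadjusted p between the genotypes after LPS. It ranged from -0.28 to 0.33 (median 0.19) in KO arrays and from -0.29 to 0.27 (median -0.092) in WT arrays, and the groups overlapped, with 3 of 7 KO arrays above every WT array. The difference was 0.19 (SE 0.092, adjusted p = 0.434, limma; exact permutation p = 0.137, two-sided). After saline Il33 lay at 0.082, 0.10, 0.10 and 0.14 in KO arrays, against -0.21, -0.018, 0.0079 and 0.098 in WT arrays (difference 0.14, SE 0.12, adjusted p = 0.853). Il33 also varied with the array number in the sample titles. In a fit with the 4 groups it was higher in arrays 12 to 22 than in arrays 1 to 11 by 0.24 (SE 0.065, adjusted p = 0.00825), as was Il18 by 0.18 (SE 0.060, adjusted p = 0.0307). Over all genes 21.5% differed between these sets of arrays, and the other 6 family genes did not pass. Without the 4 or the 5 arrays Il33 stayed past the threshold (adjusted p = 0.00847 and 0.0146) and Il18 did not (adjusted p = 0.0549 and 0.0691). Of the KO LPS arrays 5 of 7 are numbered 12 to 22, against 2 of 7 WT LPS arrays. With the array sets as a term, the Il33 difference after LPS was 0.087 (SE 0.077, adjusted p = 0.9995), and it was -0.0047 within arrays 1 to 11 and 0.11 within arrays 12 to 22.

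Il1rap moved with Il33 across arrays. It ranged from -0.034 to 0.27 (median 0.17) in KO LPS arrays, against -0.24 to 0.32 (median -0.050) in WT LPS arrays, a difference of 0.13 (SE 0.073, adjusted p = 0.493). The mean of 9 oligodendrocyte markers had an r of 0.691 with Il1rap and of 0.525 with Il33 over the 22 arrays, and it ranged from -0.21 to 0.36 in KO LPS arrays against -0.32 to 0.10 in WT LPS arrays. The mean of 10 astrocyte markers had an r of 0.333 with Il1rap and of -0.023 with Il33, and the 1 measured blood marker had an r of -0.350 with Il1rap and of -0.548 with Il33. For the mean of 11 hypothalamus markers the r was -0.382 and -0.247. As deviations from group means, the r with Il1rap and Il33 was 0.671 and 0.428 for oligodendrocyte markers. It was -0.497 and -0.492 for hypothalamus markers, 0.272 and 0.0042 for astrocyte markers, and -0.298 and -0.551 for the blood marker. The part of these markers in the Il1rap and Il33 values was not tested. Il18 ranged from -0.38 to 0.40 (median 0.059) in KO LPS arrays, against -0.25 to 0.012 (median -0.072) in WT LPS arrays. The KO array at -0.38 is numbered 4. The one at 0.40 is numbered 16 and is KO LPS replicate 5, named above for its high pituitary mean. The Il18 difference after LPS was 0.12 (SE 0.078, adjusted p = 0.557), and between 0.061 and 0.19 when 1 array was left out. It was -0.11 within arrays 1 to 11 and 0.17 within arrays 12 to 22.

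**Figure D5:**
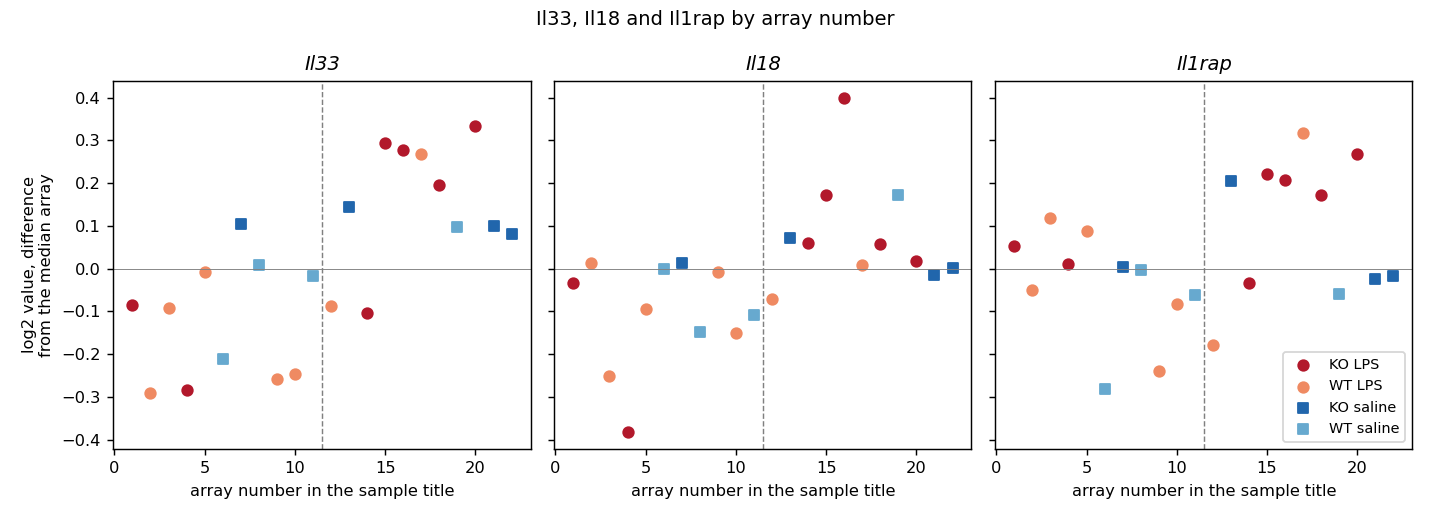
Log2 value of Il33, Il18 and Il1rap, as a difference from the median array, against the array number in the sample title, with circles for LPS and squares for saline arrays and a dashed line between arrays 11 and 12. Il33 and Il18 are higher to the right of the line by 0.24 and 0.18 in the fit with the 4 groups, and 5 of 7 KO LPS arrays lie there.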

How the data were processed

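The authors deposited log2 values for 28815 probe sets on 22 Affymetrix arrays, made with RMA (version and genome build not given in the sources used here), per the submitters' processing notes. The values are centred: over the 22 arrays each probe set has a median of 0 to within 7.02e-07, and the log base, not stated, was taken as 2, as RMA gives. Array medians lay between -0.0129 and 0.0290. Of the probe sets, 21780 had 1 symbol in the platform annotation (updated by gene ID through RefSeq GRCm38.p6, 21689 matched). The other 7035 were left out, and probe sets of a gene were averaged, giving 19935 genes. The genes followed here had 1 probe set each. limma 3.58.1 in R 4.3.3 fitted 1 mean per group over all 22 arrays with eBayes, two-sided, with Benjamini-Hochberg adjustment over all genes, in 6 contrasts. It was tested on simulated data. Errors beside differences are standard errors. Precision is limited by the number of arrays. Because the labels do not tie arrays to separate mice, the p-values cover only variation among arrays, which may be technical. Replicates are numbered in deposition order. Single genes were also tested by exact permutation of labels. Named genes are the family members, up to 6 called genes per list by size, genes that bear on a result, and the 5 genes most like a called member. Members and lists were chosen with earlier results of these data known. Further settings are in the closing section. TATAAA was added to the promoter patterns after the windows were in hand, and Casp1, Nlrp3, Il18r1, Tnf, Zc3h12a and Mmp3 were named after their values were seen.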

Additional observations from a re-analysis of the deposited data

Results flagged for a closer look

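Il1rap in KO saline replicate 2 lay at 0.205, apart from the other 3 KO saline arrays, which lay between -0.025 and 0.0028. Among the 36 combinations of gene and group examined (the 8 family genes and Il6), 1 stood apart in this way, and chance alone gives about 1 in 20. The same array was among those with high pituitary genes. Without it, the Il1rap difference between LPS and saline in KO was 0.14, against 0.087 with it, and neither passed the test. The cause was not tested.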

How the results depend on the processing

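The count of called family genes in WT after LPS was 1 (Il1a). It was 0 within arrays 1 to 11, within arrays 12 to 22 (1 WT saline array), with only the WT groups fitted, without the 4 arrays chosen earlier for high choroid plexus or pituitary genes, without these and KO LPS replicate 5 (added after seeing the data), and without the 25% of genes with the smallest SD. Leaving out 1 array gave 0 to 1. In the averaged effect the count was 1 (Il1b). It was 2 (Il1a and Il1b) with array sets as a term, after a further quantile normalization, with array medians subtracted and with array weights, and 0 within arrays 12 to 22 and without those 4 or 5 arrays. Leaving out 1 array gave 0 to 2. Il1b was called in 27 of 34 alternative fits of the averaged effect (0.23 to 0.49), and in none was its sign turned. Il1a in WT was called in 13 of 35 (0.19 to 0.27). In KO, in both genotype comparisons and in the interaction, 0 family genes were called in every alternative fit. No called value changed sign.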
